A study of Homo sapiens with 6 samples.

Results

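Aminoacyl-tRNA synthetases, the enzymes that load each tRNA with its amino acid, were followed in ribosome footprint libraries of RKO, an established human line from a colorectal carcinoma. The 38 genes were chosen by symbol from 20289 in the table, namely 19 that encode cytosolic synthetases, 3 that encode scaffold proteins of the multi-tRNA synthetase complex and 16 that encode mitochondrial synthetases. All 38 were found, and all 38 had enough signal to be tested. The libraries form 2 groups of 3, RKO cells with a short hairpin RNA against TRMT6 (shTRMT6) and RKO cells with a control hairpin (shControl). TRMT6 is a subunit of the enzyme that places m1A at position 58 of tRNAs. The labels call the control cells WT, and they give neither the hairpin sequences nor whether replicates were grown separately. The p-values therefore cover the spread among these 6 libraries, which may be technical. Values are FPKM, footprint fragments scaled to gene length and library size, and a footprint level combines the amount of an mRNA with the number of ribosomes on it.

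A synthetase activates its amino acid with ATP and joins it to the end of the cognate tRNA, which an elongation factor then carries to the ribosome. The enzymes fall into class I and class II by the fold of the catalytic domain. Human cells keep a cytosolic and a mitochondrial set, both encoded in the nucleus, and the mitochondrial enzymes serve the tRNAs transcribed from mitochondrial DNA. GARS1 and KARS1 each supply both compartments, and several cytosolic enzymes sit in a large complex held together by AIMP1, AIMP2 and EEF1E1. Many cytosolic synthetase genes are known targets of ATF4, the transcription factor of the amino acid response.

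The steps between low FPKM values gave an estimated depth of 2580645 to 4048583 reads in the knockdown libraries and 2604167 to 3906250 in the control libraries. TRMT6 itself had 20.7, 21.9 and 24.1 FPKM in shTRMT6, against 57.6, 58.4 and 95.3 FPKM in shControl. Its log2 fold change was -1.58 (SE 0.27, limma adjusted p = 0.00301). Of the epithelial markers, KRT18, KRT8, EPCAM and CDX2 were above 0 in every library, CDH1 and VIL1 were at 0 in every library, and KRT19 was above 0 in 1 control library. Of 6 markers of other cell types, the leukocyte genes PTPRC and CD3E were at 0 in every library. PECAM1, COL1A1 and COL1A2 reached at most 0.70 FPKM. ACTA2 had 1.54, 2.18 and 1.72 FPKM in shTRMT6, against 0.81, 0.84 and 0 FPKM in shControl. Among 11566 genes in the test the knockdown was higher for 26.5% and lower for 9.04% (limma on log2(FPKM + 1), Benjamini-Hochberg adjusted p under 0.05), and the median log2 fold change was 0.39. In 37.0% every knockdown library lay above every control library, and in 14.3% every knockdown library lay below.

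Among the cytosolic synthetases few genes passed on the deposited FPKM scale, where 8 had a positive and 11 a negative log2 fold change. Of 19 genes 1, QARS1, rose, 2, GARS1 and WARS1, fell and 16 did not pass, against 26.5% higher and 9.04% lower among all tested genes. The median log2 fold change of the 19 genes was -0.08 and the range -1.16 to 1.38. The balance depended on the scale. With median scaling 3 of the 19 were positive, and the median was -0.58. Of the 19, 1 was higher and 6 lower, beside 13.2% higher and 19.7% lower among all genes. With quantile normalization 5 were positive, 1 was higher and 5 lower, and the median was -0.21, beside 13.9% higher and 14.7% lower among all genes. With the trends against level and coding length taken out 3 were positive, 1 was higher and 5 lower, and the median was -0.40, beside 13.3% higher and 13.4% lower among all genes. The median of all tested genes was -0.07, -0.04 and -0.06 in these 3 fits. Every knockdown library lay above every control library for 1 gene and below for 5, against 37.0% and 14.3% of all tested genes. Their summed level was 2186, 2054 and 2404 FPKM in shTRMT6, against 1677, 1843 and 3141 FPKM in shControl. The means were 2214 ± 177 FPKM in shTRMT6 and 2220 ± 802 FPKM in shControl (SD, n = 3 each). The third control library held by far the most synthetase footprints and the first held the fewest, with the knockdown libraries between them.

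**Figure D1:**
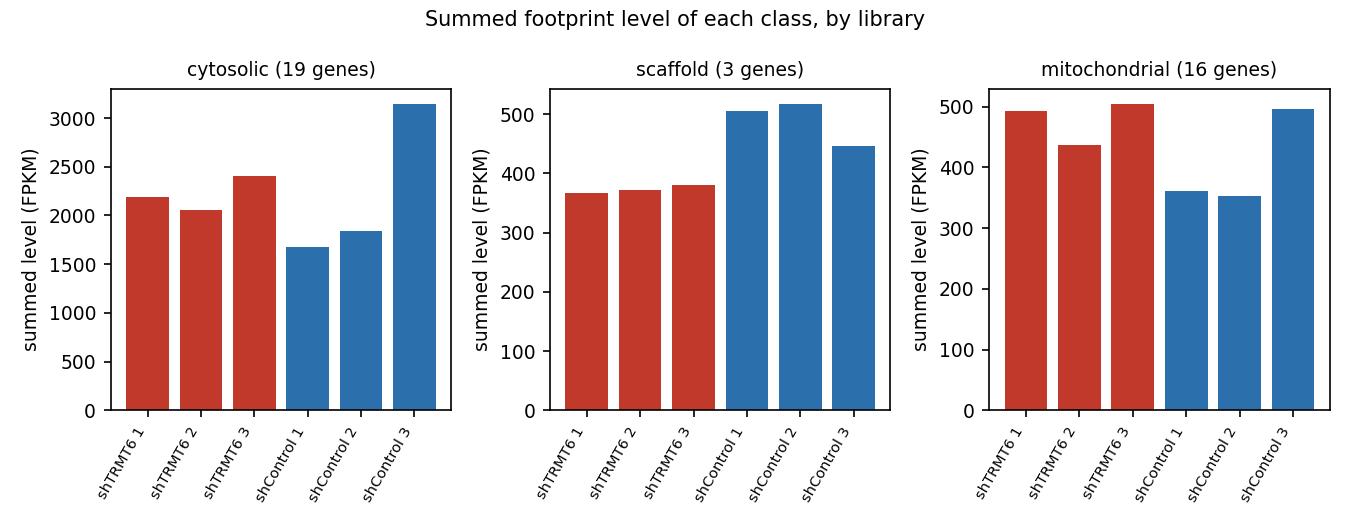
Summed footprint level (FPKM, linear axis from 0) of the 19 cytosolic, 3 scaffold and 16 mitochondrial genes in each library, shTRMT6 in red and shControl in blue. In the cytosolic panel shControl replicate 3 stands at 3141 FPKM, above the 5 other libraries, whereas in the scaffold panel all 3 knockdown libraries lie below all 3 control libraries.

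That library weighed on most cytosolic synthetases. For 17 of the 19 genes shControl replicate 3 had the highest control value, which was so for 31.9% of all tested genes. The 2 exceptions were MARS1, with 134, 122 and 75.8 FPKM in shControl replicates 1 to 3, and QARS1. Without shControl replicate 3, the median log2 fold change of the 19 genes was 0.18, and 4 were higher and 2 lower, beside 28.6% higher and 12.4% lower among all genes in that fit. The 3 additional higher genes were HARS1 (log2 fold change 1.02, limma adjusted p = 0.00849), LARS1 (1.11, limma adjusted p = 0.0139) and AARS1 (0.91, limma adjusted p = 0.0193). The mean cytosolic sum of the other two control libraries was 1760 FPKM. shControl replicate 3 also had the lowest FPKM sum over all genes. The sum was 1531873 to 1582826 in the knockdown libraries, 1463344 in shControl replicate 3 and 1737116 and 1760307 in the other control libraries. The part of this in the result was not tested.

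**Figure D2:**
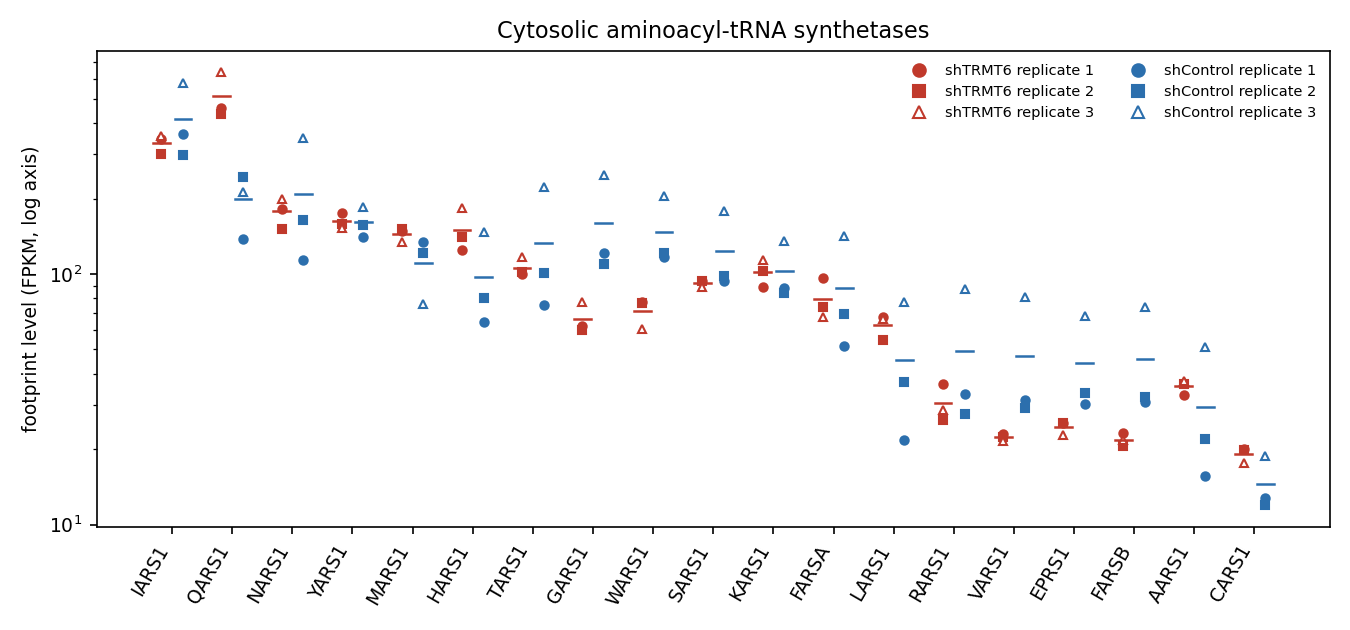
Footprint level (FPKM, log axis) of the 19 cytosolic synthetase genes in each library, ordered by mean level, with shTRMT6 in red left of shControl in blue and horizontal bars at the group means. Open triangles mark replicate 3 of each group, and in shControl that library is the highest for 17 genes, while QARS1 stands apart with all 3 knockdown libraries at 437 FPKM or more.

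QARS1, which charges tRNA-Gln and is a class I enzyme of the multi-tRNA synthetase complex, was the cytosolic synthetase that rose. It had 461, 437 and 638 FPKM in shTRMT6, against 138, 244 and 213 FPKM in shControl. Every knockdown library lay above every control library. The means were 512 ± 110 FPKM in shTRMT6 and 198 ± 54.6 FPKM in shControl (SD, n = 3 each), with a log2 fold change of 1.38 (SE 0.27, limma adjusted p = 0.00486). QARS1 (ENSG00000172053) is on chromosome 3, minus strand, at 49095932 to 49105135 (GENCODE 29, GRCh38, the source of all gene positions here). It made up 23.0% ± 3.09 of the cytosolic synthetase FPKM in shTRMT6 and 9.42% ± 3.40 in shControl (SD, n = 3 each). QARS1 thus had the highest mean of the 19 genes in shTRMT6, and the third highest in shControl. Its call held without any single library, with log2 fold changes of 1.14 to 1.55. With median scaling the value was 0.89 and passed (limma adjusted p = 0.0239).

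GARS1, which charges tRNA-Gly in both compartments, fell. It had 62.1, 59.6 and 77.5 FPKM in shTRMT6, against 121, 109 and 249 FPKM in shControl. All knockdown libraries lay below all control libraries, and the log2 fold change was -1.16 (SE 0.32, limma adjusted p = 0.0196). The gene (ENSG00000106105) lies on the plus strand of chromosome 7 from 30594681 to 30634033. The call ended without shTRMT6 replicate 1 (-1.12, limma adjusted p = 0.0642) and without shTRMT6 replicate 2 (-1.09, limma adjusted p = 0.0656). Without shControl replicate 3 the log2 fold change was -0.79 and still passed (limma adjusted p = 0.0136).

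WARS1, the tryptophanyl-tRNA synthetase, known as a gene induced by interferon, fell as well. It had 77.1, 76.8 and 60.4 FPKM in shTRMT6, against 117, 122 and 205 FPKM in shControl, again with no overlap. The log2 fold change was -1.0 (SE 0.27, limma adjusted p = 0.0182). The call ended without shTRMT6 replicate 3 (-0.88, limma adjusted p = 0.0752). WARS1 (ENSG00000140105) lies on the minus strand of chromosome 14 from 100333788 to 100376805.

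3 further cytosolic genes had no overlap between the groups and lower knockdown values, but did not pass. FARSB, the beta subunit of the phenylalanine enzyme, had 23.2, 20.6 and 21.8 FPKM in shTRMT6, against 30.7, 32.4 and 73.9 FPKM in shControl (log2 fold change -0.91, limma adjusted p = 0.0645). VARS1, for valine, had 23.0, 22.3 and 21.5 FPKM in shTRMT6, against 31.3, 29.3 and 81.3 FPKM in shControl (-0.89, limma adjusted p = 0.0906). EPRS1, one protein with both the glutamate and the proline activity, had 25.4, 25.4 and 22.8 FPKM in shTRMT6, against 30.3, 33.5 and 68.1 FPKM in shControl (-0.73, limma adjusted p = 0.107). In all 3 genes shControl replicates 1 and 2 lay close above the knockdown libraries and replicate 3 far above. With each library scaled to its median, all 3 were called lower, with SARS1, beside 13.2% of all genes higher and 19.7% lower in that fit.

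FARSA, the catalytic alpha subunit that works with FARSB in 1 enzyme, had a log2 fold change of -0.03. Its values were 96.5, 74.1 and 67.2 FPKM in shTRMT6, against 51.6, 69.0 and 142 FPKM in shControl, with wide overlap. IARS1, the isoleucine enzyme and the cytosolic synthetase of highest level over all 6 libraries, had 347, 302 and 355 FPKM in shTRMT6, against 363, 299 and 580 FPKM in shControl (-0.25, limma adjusted p = 0.473). CARS1, the cysteine enzyme and the one of lowest level, had 20.1, 19.9 and 17.6 FPKM in shTRMT6, against 12.8, 11.9 and 18.8 FPKM in shControl (0.40, limma adjusted p = 0.285). Both groups of CARS1 overlapped only through shControl replicate 3. The remaining 10 cytosolic genes, for alanine, histidine, lysine, leucine, methionine, asparagine, arginine, serine, threonine and tyrosine, had log2 fold changes of -0.50 for RARS1 to 0.69 for HARS1, and none passed.

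**Figure D3:**
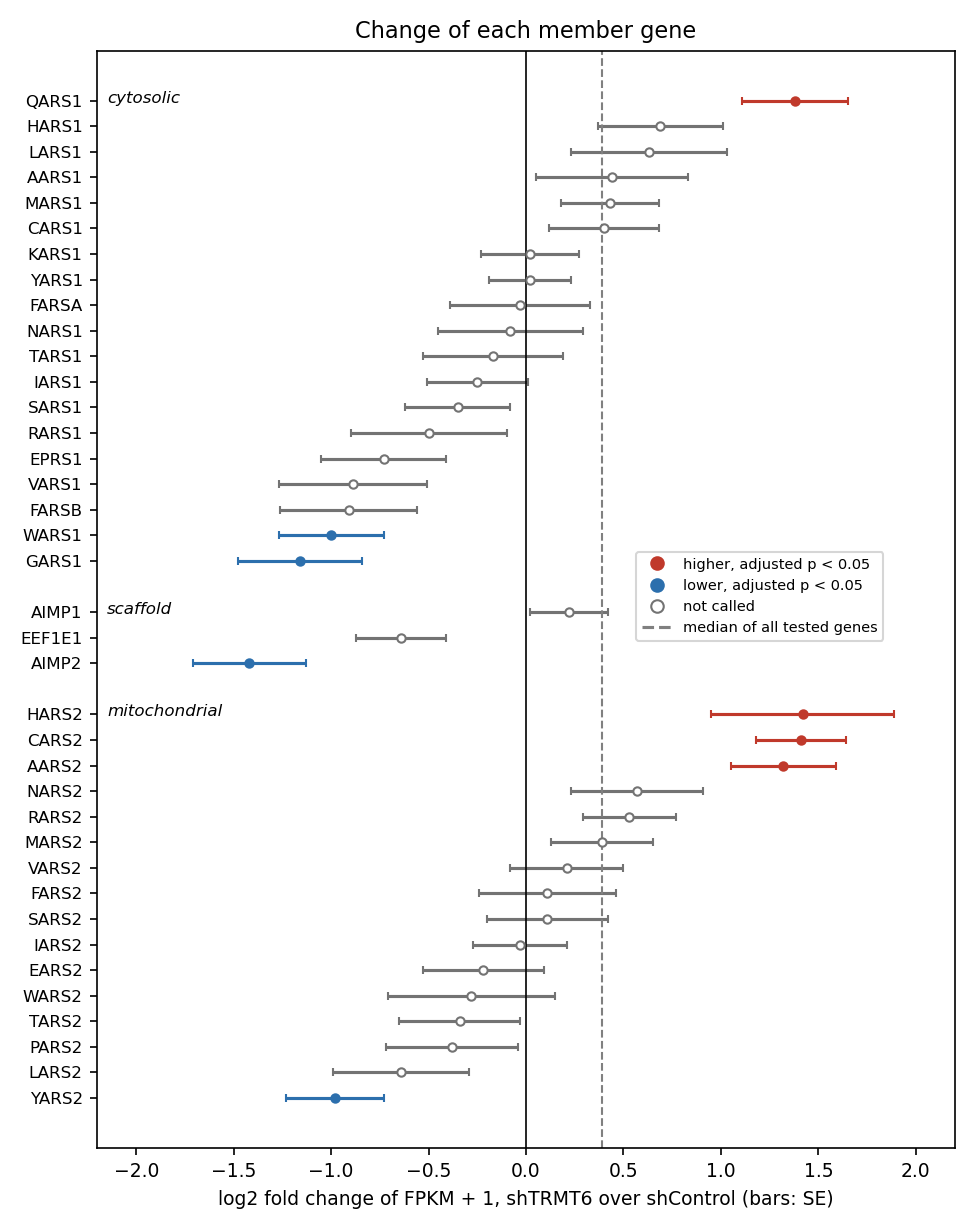
Log2 fold change of FPKM + 1 (shTRMT6 over shControl) of each of the 38 genes with its standard error, by class, with filled red and blue points for genes called higher and lower and a dashed line at 0.39, the median of all tested genes. In each class the points lie on both sides of 0, and 8 genes are called, 4 higher and 4 lower.

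Membership of the multi-tRNA synthetase complex was set beside these changes as a description, with no test between the sets. The 7 enzymes of the complex, EPRS1, IARS1, KARS1, LARS1, MARS1, QARS1 and RARS1, had 1 higher and 0 lower gene and a median log2 fold change of 0.02. At unadjusted p under 0.05, 1 of the 7 passed. The 12 enzymes outside it had 0 higher and 2 lower genes and a median of -0.13, and 4 had an unadjusted p under 0.05, beside 46.6% of all tested genes. The summed level of the 7 was 1175, 1098 and 1359 FPKM in shTRMT6, against 809, 847 and 1238 FPKM in shControl, where shControl replicate 3 fell among the knockdown libraries. By catalytic class, 18 class I genes had 2 higher and 2 lower members with a median of -0.00. The 16 class II genes had 2 higher and 1 lower with a median of -0.01. EPRS1 was counted in neither class. Beside each of these sets, 26.5% of all tested genes were higher and 9.04% lower, with a median of 0.39.

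The scaffold proteins had lower summed footprints in shTRMT6, and the 3 genes differed among themselves. The sum was 366, 373 and 380 FPKM in shTRMT6, against 505, 517 and 446 FPKM in shControl, with no overlap. Of the 3 genes EEF1E1 differed most in FPKM, with means of 166.5 in shTRMT6 and 263.5 in shControl. EEF1E1 did not pass, and the division of its reads is uncertain. AIMP2, the core scaffold onto which the lysine enzyme and others assemble, had 18.9, 32.6 and 28.6 FPKM in shTRMT6, against 70.4, 56.2 and 90.7 FPKM in shControl. All knockdown libraries lay below all control libraries. AIMP2 fell, with a log2 fold change of -1.42 (SE 0.29, limma adjusted p = 0.00628), and this call held without any single library, at -1.58 to -1.19. It (ENSG00000106305) lies on the plus strand of chromosome 7 from 6009245 to 6023834.

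EEF1E1, the smallest scaffold protein and the scaffold gene of highest level, had 176, 173 and 151 FPKM in shTRMT6, against 288, 305 and 197 FPKM in shControl. Its groups did not overlap, and its log2 fold change of -0.64 did not pass (SE 0.23, limma adjusted p = 0.0556). It passed without shControl replicate 3 (-0.83, limma adjusted p = 0.00517). Of the 28-base stretches of its coding sequence 82.6% also occur in transcripts of another annotated gene, so that the division of its reads is uncertain. AIMP1, which binds the arginine and glutamine enzymes and is also known as a secreted cytokine precursor, had 172, 167 and 200 FPKM in shTRMT6, against 146, 155 and 159 FPKM in shControl. Its groups did not overlap either, with the knockdown libraries above, and the log2 fold change was 0.22 (SE 0.20, limma adjusted p = 0.400). With median scaling the value of AIMP1 was -0.27, on the same side as AIMP2 (-1.90).

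Among the 16 mitochondrial synthetases CARS2, AARS2 and HARS2 rose, YARS2 fell and 12 did not pass, against 26.5% higher and 9.04% lower among all tested genes. The median log2 fold change was 0.11 and the range -0.98 to 1.42, beside a median of 0.39 for all tested genes. The sign of the median turned with the scale, to -0.34 with median scaling, -0.51 with quantile normalization and -0.54 with trends removed. Every knockdown library lay above every control library for 4 genes and below for 1, against 37.0% and 14.3% of all tested genes. Their levels were lower than those of the cytosolic set, with a median over genes of the mean level of 24.2 FPKM against 108 FPKM. The summed level was 493, 437 and 504 FPKM in shTRMT6, against 361, 352 and 497 FPKM in shControl. The knockdown libraries lay above shControl replicates 1 and 2, and shControl replicate 3 lay among the knockdown libraries.

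**Figure D4:**
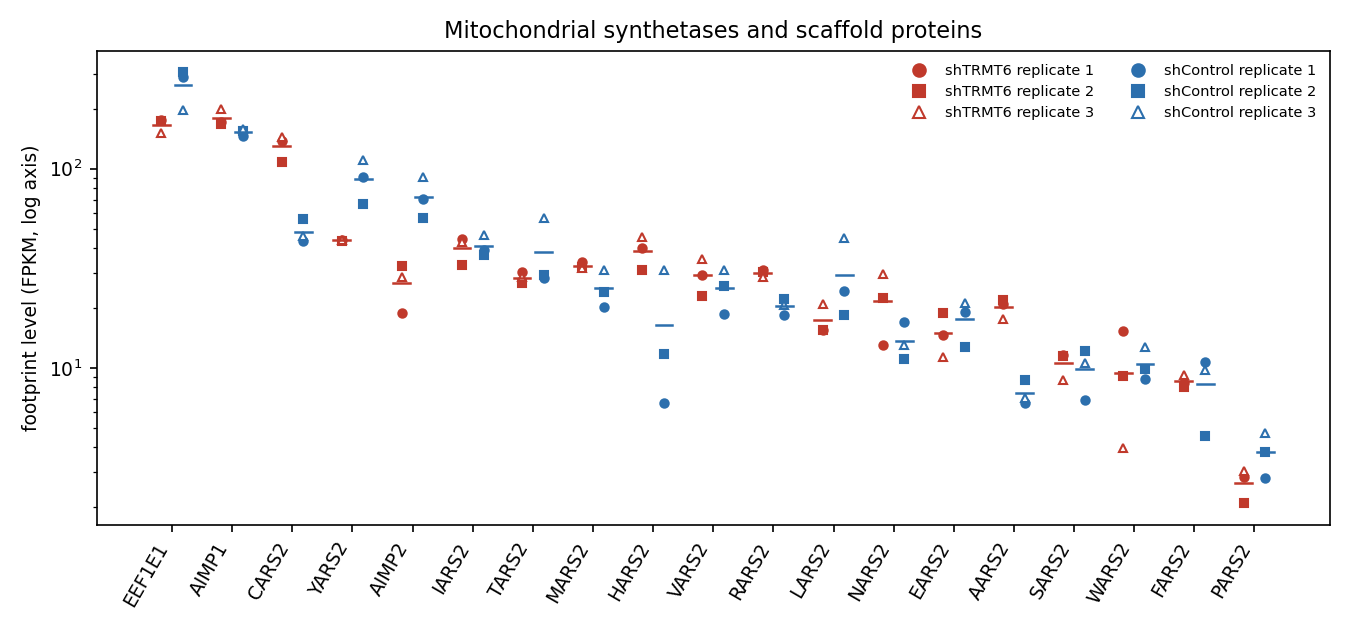
Footprint level (FPKM, log axis) of the 16 mitochondrial synthetase genes and the 3 scaffold genes in each library, ordered by mean level, with shTRMT6 in red left of shControl in blue and horizontal bars at the group means. CARS2 and AARS2 show all red points above all blue points, YARS2 and AIMP2 all red points below, and HARS2 a wide spread of its control libraries.

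CARS2, the mitochondrial cysteine enzyme, also known for making cysteine persulfides, was the mitochondrial synthetase of highest mean level. It had 139, 109 and 144 FPKM in shTRMT6, against 43.2, 55.6 and 46.0 FPKM in shControl. The lowest knockdown library was well above the highest control library. The log2 fold change was 1.41 (SE 0.23, limma adjusted p = 0.00246), and 1.34 to 1.54 without any single library, called each time. With median scaling it was 0.92 and passed (limma adjusted p = 0.0111). CARS2 (ENSG00000134905) lies on the minus strand of chromosome 13 from 110641412 to 110713603.

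AARS2, the mitochondrial alanine enzyme, had 21.0, 21.8 and 17.7 FPKM in shTRMT6, against 6.63, 8.70 and 7.05 FPKM in shControl. The groups did not overlap, and the log2 fold change was 1.32 (SE 0.27, limma adjusted p = 0.00653). The call ended with quantile normalization (0.67, limma adjusted p = 0.0845) and after trends against level and coding length were taken out (0.52, limma adjusted p = 0.176), and the value was 0.87 with median scaling, where it passed (limma adjusted p = 0.034). AARS2 (ENSG00000124608) lies on the minus strand of chromosome 6 from 44299654 to 44313326, and its values rest on an estimated 64 to 261 reads per library.

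HARS2 (ENSG00000112855; chromosome 5, plus strand, 140691426 to 140699318), the mitochondrial histidine enzyme, passed with little margin. It had 39.8, 30.9 and 45.3 FPKM in shTRMT6, against 6.62, 11.8 and 31.1 FPKM in shControl. shControl replicate 3 lay level with the lowest knockdown library. The log2 fold change was 1.42 (SE 0.47, limma adjusted p = 0.0391), and 1.99 without shControl replicate 3 (limma adjusted p = 0.00308). The call ended without any one of the 5 other libraries, at log2 fold changes of 0.96 to 1.57, the lowest without shControl replicate 1 (limma adjusted p = 0.116). It also ended with median scaling (0.95, limma adjusted p = 0.145), quantile normalization (0.89, limma adjusted p = 0.148), removal of trends (0.91, limma adjusted p = 0.151) and no filter on low values (limma adjusted p = 0.0731).

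YARS2, the mitochondrial tyrosine enzyme, fell. It had 43.8, 43.1 and 44.0 FPKM in shTRMT6, against 91.0, 66.2 and 110 FPKM in shControl. The knockdown libraries were nearly equal and all below the control libraries, with a log2 fold change of -0.98 (SE 0.25, limma adjusted p = 0.0141). The call ended without shTRMT6 replicate 1 (-0.99, limma adjusted p = 0.0524). YARS2 (ENSG00000139131) lies on the minus strand of chromosome 12 from 32727490 to 32755902.

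Of the other 12 mitochondrial genes, RARS2 for arginine and MARS2 for methionine had every knockdown library above every control library without passing. RARS2 had 31.0, 30.3 and 28.5 FPKM in shTRMT6, against 18.3, 22.1 and 20.7 FPKM in shControl (log2 fold change 0.53, limma adjusted p = 0.108). MARS2 had 34.0, 32.2 and 31.6 FPKM in shTRMT6, against 20.1, 23.9 and 31.1 FPKM in shControl (0.39, limma adjusted p = 0.262). After those trends were taken out both had values below 0, at -0.05 for RARS2 and -0.20 for MARS2. LARS2, for leucine, had 15.5, 15.5 and 20.9 FPKM in shTRMT6, against 24.2, 18.3 and 45.0 FPKM in shControl (-0.64, limma adjusted p = 0.179), and was called lower with median scaling (-1.11, limma adjusted p = 0.040). PARS2, the proline enzyme and the member of lowest level, had 2.82, 2.09 and 3.02 FPKM in shTRMT6, against 2.80, 3.78 and 4.70 FPKM in shControl. These values rest on an estimated 11 to 26 reads per library, at which a change of the size seen (-0.38, limma adjusted p = 0.415) is not resolved. With trends removed PARS2 (-1.08), TARS2 for threonine (-0.99), IARS2 for isoleucine (-0.75) and LARS2 (-1.35) were called lower with YARS2, and PARS2 and LARS2 also with quantile normalization (-1.15 and -1.19). WARS2, the tryptophan enzyme, ranged from 3.95 to 15.3 FPKM within shTRMT6 alone. SARS2, for serine, shares 75.9% of its 28-base coding stretches with another annotated gene, so that its log2 fold change of 0.11 is uncertain. For the 36 genes other than SARS2 and EEF1E1 that share was at most 3.77%.

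For 13 amino acids a cytosolic and a mitochondrial gene with the same symbol apart from the final 1 or 2 were among the members. Their balance within a library was set out as the log2 ratio of FPKM + 1. Phenylalanine, glutamate and proline also have members of both kinds, but without such matching symbols, and were not paired. The cytosolic gene had the higher level in every library for 9 of the 13. CARS1 was below CARS2 in all 6 libraries, at -2.73, -2.39 and -2.96 in shTRMT6, against -1.68, -2.13 and -1.25 in shControl. The ratio of each knockdown library lay below that of each control library for 5 pairs, those for cysteine, alanine, histidine, arginine and valine. It lay above in the same way for 2 pairs, leucine and tyrosine, and overlapped for the remaining 6. Such separation was common for the levels of single genes, with 37.0% of all tested genes above and 14.3% below. No such share was worked out for ratios of other gene pairs, so these counts show no shift particular to the synthetases. The VARS1 to VARS2 ratio was -0.34, -0.03 and -0.69 in shTRMT6, against 0.72, 0.18 and 1.36 in shControl. VARS2 was thus the higher gene in each knockdown library and VARS1 in each control library, by little in replicate 2 of both groups. Neither VARS1 (log2 fold change -0.89, limma adjusted p = 0.0906) nor VARS2 (0.21, limma adjusted p = 0.591) passed. The YARS1 to YARS2 ratio was 1.97, 1.86 and 1.78 in shTRMT6, against 0.63, 1.23 and 0.74 in shControl. YARS1 itself hardly differed, with 175, 159 and 153 FPKM in shTRMT6, against 141, 157 and 185 FPKM in shControl (log2 fold change 0.02, limma adjusted p = 0.948). The control ratio was highest in shControl replicate 3 for 9 of the 13 pairs, and no test was made of these ratios.

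**Figure D5:**
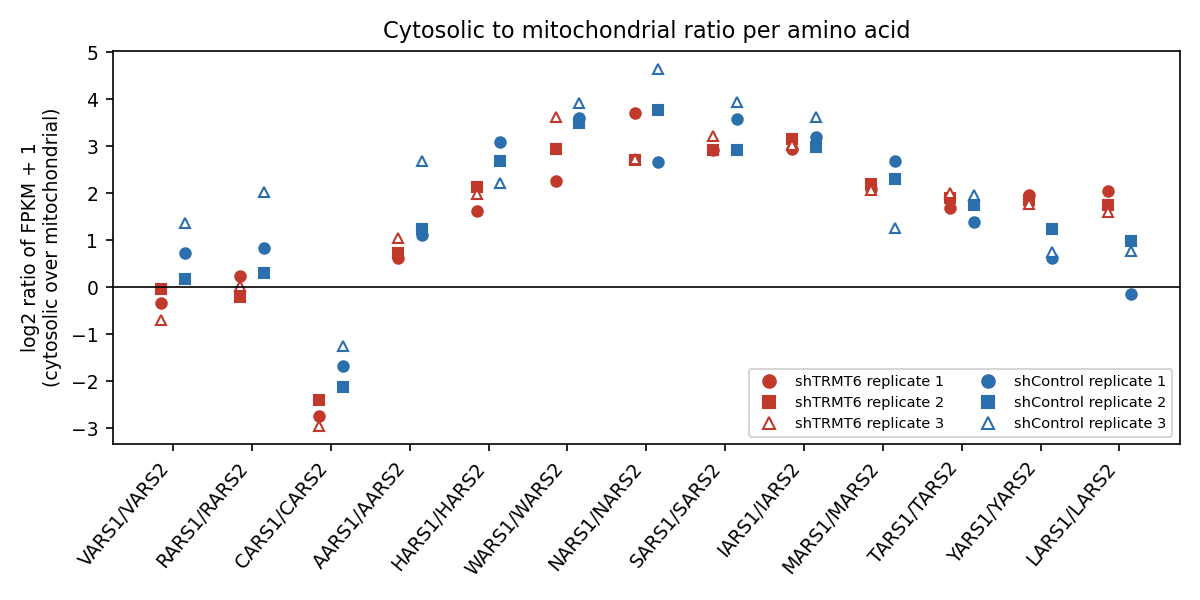
Log2 ratio of FPKM + 1 of the cytosolic over the mitochondrial synthetase for 13 amino acids, per library, with shTRMT6 in red left of shControl in blue and pairs ordered by the difference between group means. Red points lie below all blue points for 5 pairs and above them for LARS1 over LARS2 and YARS1 over YARS2, and the CARS1 over CARS2 ratio is below 0 throughout.

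HARS1 and HARS2 are transcribed away from each other on chromosome 5, and their RefSeq starts lie 85 bases apart. The stretch between them is shown because both genes had higher mean levels in shTRMT6, and it is given on the plus strand (chr5:140691371-140691454, GRCh38.p14), with HARS1 leaving to the left and HARS2 to the right, and no capitals.
HARS1 and HARS2: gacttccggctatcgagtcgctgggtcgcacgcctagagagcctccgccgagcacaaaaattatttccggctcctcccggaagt
HARS1 had 125, 140 and 183 FPKM in shTRMT6, against 64.3, 80.5 and 147 FPKM in shControl, and did not pass (log2 fold change 0.69, SE 0.32, limma adjusted p = 0.117). Positive log2 fold changes were common in the main test, at 7702 of 11566 tested genes. With median scaling neither HARS1 (0.19, limma adjusted p = 0.674) nor HARS2 (0.95, limma adjusted p = 0.145) passed. A joint change of the pair was not tested. For both genes shControl replicate 1 was the lowest library and shControl replicate 3 the highest control. None of the 28-base coding stretches of HARS2 occurs in HARS1 transcripts, while the annotated gene bodies overlap on opposite strands at their starts, where reads of the genes cannot be told apart without strand.

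ATF4 with a C/EBP partner is known to bind composite sites with the core TGATGNAA. RefSeq promoter windows, from 250 bases before to 50 after a start, were found for 33 of the 38 genes, not for AARS2, LARS1, VARS1, VARS2 and YARS1. On either strand TGATGNAA occurred in windows of 7 of 16 cytosolic genes, 0 of 3 scaffold genes and 1 of 14 mitochondrial genes, and in 4.46% of all 27305 genes in that table. The E-box CACGTG, occurred for 1, 1 and 3 genes of the same sets and 8.77% of all genes. IARS1 alone of the 33 held both, at separate places in its window. The matches are shown to let the cores be compared, each with 11 bases on either side on the strand of its gene (GRCh38.p14), the match in capitals and read on the other strand where it begins with TT.
AARS1 (chr16:70289675-70289704): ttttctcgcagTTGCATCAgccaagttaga
CARS1 (chr11:3057407-3057436): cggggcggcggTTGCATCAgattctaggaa
GARS1 (chr7:30594834-30594863): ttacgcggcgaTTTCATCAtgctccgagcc
IARS1 (chr9:92293692-92293721): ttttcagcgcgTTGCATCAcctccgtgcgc
MARS1 (chr12:57488053-57488082): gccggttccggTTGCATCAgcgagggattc
NARS1 (chr18:57621804-57621833): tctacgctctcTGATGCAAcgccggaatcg
TARS1 (chr5:33440956-33440985): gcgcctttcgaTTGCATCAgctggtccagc
YARS2 (chr12:32756076-32756105): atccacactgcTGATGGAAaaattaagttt
The 7 cytosolic genes with a match had 0 higher and 1 lower gene, GARS1, and a median log2 fold change of -0.08. The 9 searched cytosolic genes without one had 1 higher and 1 lower and a median of -0.35. shControl replicate 3 was the highest control for 6 of the 7 and 8 of the 9. A match is a sequence description and says nothing of binding in these cells. Of the 13 cytosolic genes listed as reported ATF4 targets, 0 were higher and 2, GARS1 and WARS1, lower, 3 had an unadjusted p under 0.05, and the median was -0.17. Among all tested genes 26.5% were higher, 9.04% lower and 46.6% had an unadjusted p under 0.05.

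Further genes of aminoacyl-tRNA supply moved both ways. Of 21 such genes 4 were higher, 3 lower and 14 did not pass, against 26.5% and 9.04% of all tested genes. The higher ones included PSTK and SEPSECS. After SARS1 has charged the selenocysteine tRNA with serine, PSTK phosphorylates that serine and SEPSECS converts the product to selenocysteine. SEPSECS had 15.2, 22.7 and 29.6 FPKM in shTRMT6, against 10.4, 5.57 and 4.48 FPKM in shControl (log2 fold change 1.61, SE 0.37, limma adjusted p = 0.00996). PSTK had 5.20, 5.42 and 6.87 FPKM in shTRMT6, against 1.17, 1.07 and 2.45 FPKM in shControl (1.45, SE 0.36, limma adjusted p = 0.013), on an estimated 3 to 24 reads per library. Both showed no overlap between the groups, while SARS1 had 93.7, 94.1 and 89.1 FPKM in shTRMT6, against 93.4, 98.4 and 179 FPKM in shControl (-0.35, limma adjusted p = 0.339). PSTK lost its call without shTRMT6 replicate 3 (1.34, limma adjusted p = 0.0615). Neither passed with quantile normalization (limma adjusted p = 0.0812 for SEPSECS and 0.194 for PSTK) or with trends removed (0.0717 for SEPSECS and 0.0972 for PSTK).

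ANKRD16, known in mouse as a partner of the alanine enzyme that takes up misactivated serine, had 16.7, 16.6 and 18.3 FPKM in shTRMT6, against 6.76, 6.35 and 11.1 FPKM in shControl (log2 fold change 1.04, limma adjusted p = 0.0244). TRNT1, which adds the CCA end that a synthetase charges, had 137, 132 and 151 FPKM in shTRMT6, against 63.0, 89.0 and 99.4 FPKM in shControl (0.76, limma adjusted p = 0.0324). Both were higher in every knockdown library and both lost their calls with median scaling (limma adjusted p = 0.175 for ANKRD16 and 0.41 for TRNT1), quantile normalization (0.372 for ANKRD16 and 0.0604 for TRNT1) and trends removed (0.144 for ANKRD16 and 0.0519 for TRNT1). ANKRD16 passed in only 1 of the 6 fits that left out a library, that without shControl replicate 3, and in the 5 others its log2 fold change was 0.91 to 1.06 and its limma adjusted p 0.0573 to 0.0838. TRNT1 did not pass without shControl replicate 1 (0.57, limma adjusted p = 0.113) or without shTRMT6 replicate 1, 2 or 3, where the log2 fold change was 0.77, 0.79 and 0.70 (limma adjusted p = 0.0978, 0.0754 and 0.115).

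PTRH2, a peptidyl-tRNA hydrolase of mitochondria, was lower, with 69.5, 73.5 and 52.0 FPKM in shTRMT6, against 220, 197 and 177 FPKM in shControl (log2 fold change -1.60, SE 0.23, limma adjusted p = 0.00155). DTD1, which removes D-amino acids from tRNA, had 36.5, 52.3 and 49.0 FPKM in shTRMT6, against 139, 87.5 and 109 FPKM in shControl (-1.26, limma adjusted p = 0.0063). HSD17B10, a subunit of mitochondrial RNase P, had 76.3, 120 and 77.0 FPKM in shTRMT6, against 227, 220 and 195 FPKM in shControl (-1.25, limma adjusted p = 0.00481). The other subunits, TRMT10C (-0.35, limma adjusted p = 0.277) and PRORP (-0.14, limma adjusted p = 0.765), did not pass, and their groups overlapped. PTRH2, DTD1 and HSD17B10 all had every knockdown library below every control library, as had 6 of the 21 supply genes and 14.3% of all tested genes. The subunits of the amidotransferase that completes mitochondrial Gln-tRNA from the product of EARS2 did not pass, at -0.22 for GATB, 0.11 for GATC and -0.04 for QRSL1, beside -0.22 for EARS2 itself. XPOT, the tRNA exporter, had 116, 82.6 and 116 FPKM in shTRMT6, against 151, 139 and 118 FPKM in shControl (-0.38, limma adjusted p = 0.216), with no overlap between the groups.

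Over all tested genes the log2 fold change was larger for longer coding sequences and smaller at higher levels. The members' values are given beside this as a description, with no test of the difference. Across the 38 genes, which share the same 6 libraries and are not independent, Pearson's r of the log2 fold change with log2 coding length was 0.14 and Spearman's rho 0.12. Over the 11501 tested genes with a coding length they were 0.32 and 0.36. With log2 mean level the values were -0.02 and -0.09 for the members and -0.30 and -0.31 for the 11501 genes. The members had a median coding length of 1750 nt, against 1392 nt for all tested genes. With both trends removed, QARS1 (log2 fold change 1.23, limma adjusted p = 0.00489) and CARS2 (1.02, limma adjusted p = 0.00796) remained the members called higher, and 11 members were called lower, 5 cytosolic, 1 scaffold and 5 mitochondrial, beside 13.3% higher and 13.4% lower among all genes in that fit.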

How the data were processed

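The FPKM values per gene were deposited by the authors, per the file headers, with 2 decimals. Per the submitters' processing notes the tools were fastp, STAR and RSEM. Genome build, annotation, strand use and the treatment of shared reads are not given in sources used here. Columns named NC and SH, numbered 1 to 3, were read as shControl and shTRMT6, which no label spells out. Symbols came from a gene name table, and positions and coding lengths from GENCODE 29 on GRCh38, which may differ from the authors' annotation. Depth was estimated from steps between low values of 4210 genes with 1 coding transcript, and 68.2% to 76.1% of these values lay no more than 0.1 read from an integer, so depths and reads per gene are approximate and no count model was fitted.

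The test fitted group alone to log2(FPKM + 1) of the deposited values with limma 3.58.1 (R 4.3.3) and eBayes with a trend. It covered the 11566 genes that reached 1 FPKM in 3 or more libraries, with Benjamini-Hochberg adjustment over all of them and a threshold of 0.05. Fold changes on this scale understate those of low genes. The code was tested on simulated data. Alternatives were median scaling, quantile normalization, removal of trends against coding length and level (per library, by 5 df splines), no filter, a filter on mean FPKM at 5, the replicate number as a block, 0.1 as pseudocount and leaving out each library. Medians and counts over a list carry no test. The members, lists and alternatives were chosen with earlier results of these data known. Values in every library are given for each called member, for the members of highest and lowest level in each class and for called genes of the supply list; other genes shown with their values were chosen after these were seen. Shared 28-base stretches were counted between the longest coding sequence of a member and all GENCODE 29 transcripts of other genes. Promoter windows are from RefSeq on GRCh38.p14. Python 3.11.15 with pandas 2.3.3, numpy 2.4.6 and matplotlib 3.10.9 was used.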

Additional observations from a re-analysis of the deposited data

How the results depend on the processing

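Of the 8 called members, QARS1, CARS2 and AIMP2 kept direction and call under every alternative run. All tested genes numbered 1522 higher and 2275 lower with median scaling, 1602 and 1700 with quantile normalization and 1541 and 1546 with trends removed. Lower cytosolic genes numbered 6, 5 and 5 under these 3 settings, lower mitochondrial genes 2, 3 and 5, and higher mitochondrial genes 1 with quantile normalization and 1 with trends removed. Lower scaffold genes numbered 2 with median scaling. Supply genes numbered 2 higher and 10 lower with median scaling, 0 and 5 with quantile normalization and 0 and 6 with trends removed; the cause was not tested.

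Some members that did not pass in the main test changed sign. With median scaling the log2 fold changes were -0.04 for AARS1, -0.07 for CARS1, -0.48 for KARS1, -0.07 for MARS1, -0.47 for YARS1, -0.27 for AIMP1, -0.34 for FARS2, -0.09 for MARS2, -0.34 for SARS2 and -0.26 for VARS2. With quantile normalization they were -0.04 for AARS1, -0.21 for CARS1, -0.15 for KARS1, -0.58 for FARS2, -0.09 for MARS2, -0.02 for NARS2, -0.58 for SARS2 and -0.28 for VARS2. With trends removed they were -0.29 for AARS1, -0.32 for CARS1, -0.34 for KARS1, -0.08 for LARS1, -0.13 for YARS1, -0.49 for FARS2, -0.20 for MARS2, -0.05 for RARS2, -0.54 for SARS2 and -0.54 for VARS2.

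Leaving out 1 library gave 1769 to 3290 higher and 590 to 1427 lower genes in all, 1 to 4 higher and 1 to 4 lower cytosolic genes, 0 to 1 lower mitochondrial genes, 1 to 2 lower scaffold genes and 1 to 5 higher supply genes. Log2 fold changes ranged over both signs for FARSA (-0.34 to 0.39), IARS1 (-0.46 to 0.02), KARS1 (-0.11 to 0.24), NARS1 (-0.44 to 0.37), TARS1 (-0.50 to 0.27), YARS1 (-0.07 to 0.12), FARS2 (-0.23 to 0.31), IARS2 (-0.11 to 0.10), SARS2 (-0.11 to 0.26) and WARS2 (-0.68 to 0.18). The replicate number pairs no samples by the labels, and deviations of same-numbered libraries correlated at 0.012, 0.013 and 0.102. With the replicate number as a block, 2 cytosolic genes were higher and 2 scaffold genes lower, adding HARS1 and EEF1E1, and FARSB was lower. Among all 11566 tested genes 3146 were higher and 1065 lower in that fit. Estimated reads were at most 54 per library for PARS2, WARS2, FARS2 and PSTK, which limits their precision. PARS2 is not tested at a mean of at least 5 FPKM.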
